A study of Arabidopsis thaliana with 8 samples.

Results

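Chlorophyll and tetrapyrrole synthesis genes were represented by 4 of the 3439 features on the array. They were defined by the array's annotation, but the choice was made with earlier results of these data known. They are the features assigned to AT1G74470 alone, to CHLM alone or to HEMA3 alone, and the feature shared by exactly HEME1 and HEME2. Of the 4 features, 3 had 1 gene each and 1 was shared by 2 genes, so 5 genes stood behind them. The arrays carried RNA of 8 Arabidopsis thaliana samples, all of ecotype Columbia 0. The wild type (WT) and the double mutant psah2k each gave 4 samples, numbered 1 to 4. No dye, treatment, age or organ is named in the labels, nor whether the numbered samples came from separate plants. The spread behind each p-value may therefore be technical. The name of the mutant refers to photosystem I subunits H and K, whereas the sample description gives E1 and K. Photosystem I is the thylakoid complex that drives electrons from plastocyanin to ferredoxin.

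Plants make chlorophyll and heme in the plastid by a shared route that starts from glutamate. Glutamyl-tRNA reductase (the HEMA genes) opens the route and is its main point of control. Uroporphyrinogen III decarboxylase (the HEME genes) works on the common trunk, before the trunk divides into an iron branch to heme and a magnesium branch to chlorophyll. Mg-protoporphyrin IX methyltransferase (CHLM) acts early in the magnesium branch. Geranylgeranyl reductase (AT1G74470, also called CHLP) makes the phytyl tail of chlorophyll and of tocopherol. Free tetrapyrroles produce reactive oxygen in light, and chlorophyll itself is bound by the photosystems and their antennae.

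The arrays of the genotypes differed in their whole distribution, which touches every value below. Median deposited intensities were 0.304 to 0.336 on the WT arrays and 0.0506 to 0.0582 on the psah2k arrays, on a linear scale with a ceiling of 100. A value of 0 was listed for 448 to 472 features per WT array and for 739 to 1014 per psah2k array. Each gene is therefore given as its deposited intensity, as its percentile rank within the array, and as a log2 fold change (psah2k minus WT) after quantile normalization, fitted by limma over all 2353 tested features with Benjamini-Hochberg adjustment. Less RNA of a gene per cell and fewer cells with that gene cannot be told apart in such bulk samples. None of the 10 root and seed marker genes looked for had a feature, so the organ could not be checked.

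All 4 features were above 0 on all 8 arrays and all were tested. After quantile normalization, 2 of them rose in psah2k (the HEME1/HEME2 feature and AT1G74470), 1 fell (HEMA3) and CHLM did not pass the threshold of 0.05. Over the array, limma called 53.0% of tested features, 26.3% as higher and 26.6% as lower, and 3 of 4 features are too few to set apart from that share. The median log2 fold change was 0.32 over the 4 features and −0.12 over all tested features. As deposited, 1 of the 4 was called higher and 2 lower, where 80.3% of tested features were called, 7.31% as higher and 73.0% as lower. Median centring called 2 of the 4 (51.6% of tested features), upper quartile centring 3 (57.7%) and cyclic loess 3 (44.9%). Averaging numbers 1-2 and numbers 3-4 of a genotype before the fit left 1 of the 4 called (29.3%).

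HEMA3 encodes a glutamyl-tRNA reductase. It is a paralog of HEMA1, which serves chlorophyll synthesis in green tissue. The feature is annotated to HEMA3 alone, but whether RNA of other HEMA genes also bound to it was not tested. Its deposited intensity was 1.14, 1.19, 1.04 and 1.09 in WT samples 1 to 4, and 0.306, 0.305, 0.337 and 0.312 in psah2k samples 1 to 4. The psah2k arrays were all lower, as was so for 67.4% of the features above 0 on at least 1 array. The spread was narrow in both genotypes. The means were 1.11 ± 0.0651 in WT and 0.315 ± 0.0151 in psah2k (SD, n = 4 each), a level 3.54 times as high in WT. The percentile rank of HEMA3 went from 88.6 ± 0.511 in WT to 82.2 ± 1.58 in psah2k. Again no psah2k array reached a WT array, and the ranks of 52.4% of the features above 0 on at least 1 array did not overlap.

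After quantile normalization HEMA3 fell by 0.92 on the log2 scale (SE 0.142, limma adjusted p = 0.00121). The call was lost when numbers 1-2 and numbers 3-4 were averaged before the fit (adjusted p = 0.0595). With each array centred on its median, the log2 fold change was 0.11 (adjusted p = 0.504). As deposited, the log2 fold change of HEMA3 was −1.82, while the median of all tested features was −1.77. The intensity of HEMA3 thus fell by about as much as that of the median feature, from a high position on the WT arrays. HEMA3 was called lower under 4 of the 5 scalings, all but median centring. Its log2 fold change was −0.90 by cyclic loess (adjusted p = 0.000783) and −0.59 by upper quartile centring (adjusted p = 0.0141). Taken relative to the median tested feature, it was −0.80 after quantile normalization and −0.82 by cyclic loess. On the deposited, median centred and upper quartile centred scales that relative value was only −0.06, −0.07 and −0.07.

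The feature shared by HEME1 and HEME2 gave the clearest shift in position. Both genes encode uroporphyrinogen III decarboxylase, and the array cannot tell their transcripts apart. Its deposited intensity was 0.296, 0.307, 0.293 and 0.289 in WT samples 1 to 4, and 0.250, 0.336, 0.243 and 0.211 in psah2k samples 1 to 4. These values overlapped between genotypes, because psah2k 2 lay above every WT array. The means were 0.296 ± 0.00765 in WT and 0.260 ± 0.0533 in psah2k (SD, n = 4 each). The percentile rank of this feature, by contrast, was 45.4, 46.6, 48.7 and 47.8 in WT samples 1 to 4 and 79.0, 81.7, 79.4 and 77.1 in psah2k samples 1 to 4. It sat near the middle of the WT arrays and in the upper part of every psah2k array.

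The HEME1/HEME2 feature rose by 32.2 percentile points, and 4.15% of the 3305 ranked features had a larger gain. After quantile normalization its log2 fold change was 1.51 (SE 0.116, limma adjusted p = 5.23e-05), above that of 90.6% of tested features. It also passed as higher after cyclic loess (1.63), median centring (1.73) and upper quartile centring (1.02), and with the numbers averaged in this way (adjusted p = 0.0212). As deposited it turned to −0.21 (adjusted p = 0.271), 1.56 above the median of all tested features on that scale. Its intensities thus overlapped between genotypes on a scale where the median feature was dimmer in psah2k.

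**Figure D1:**
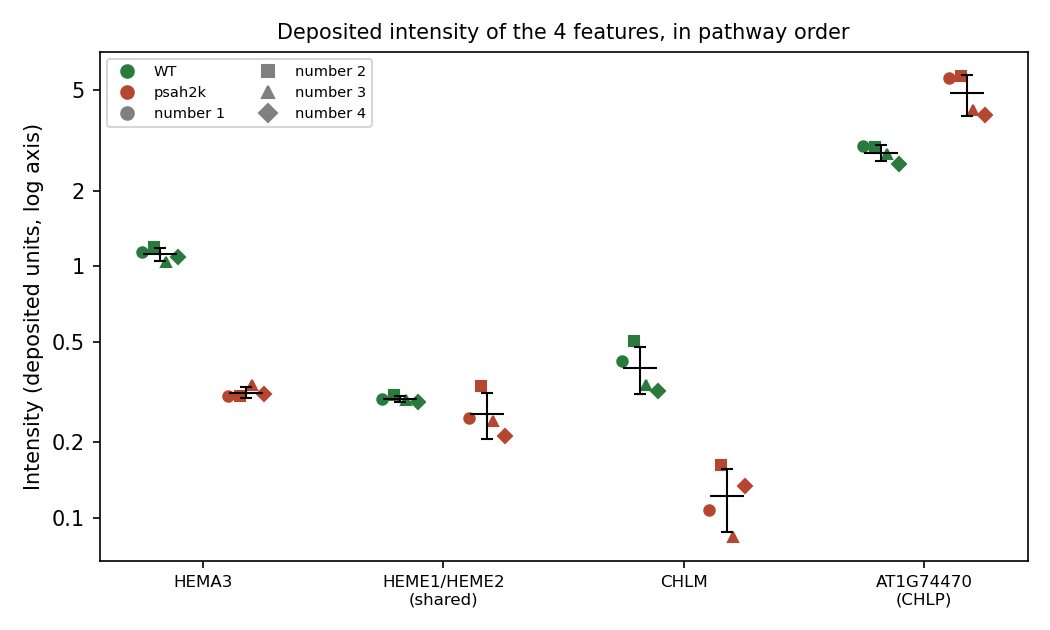
Deposited intensity (log axis, deposited units) of the 4 features on each array, in the order of the pathway, for WT (green) and psah2k (red); marker shapes give the sample number, black lines the mean and bars the SD over 4 arrays. HEMA3 and CHLM were lower on every psah2k array, AT1G74470 was higher on every psah2k array, and the HEME1/HEME2 feature overlapped.

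CHLM encodes the enzyme that methylates Mg-protoporphyrin IX. Its deposited intensity was 0.422, 0.503, 0.336 and 0.318 in WT samples 1 to 4, and 0.107, 0.162, 0.0837 and 0.134 in psah2k samples 1 to 4. Every psah2k array was below every WT array, as was also so for 67.4% of the features above 0 on at least 1 array. The means were 0.395 ± 0.0850 in WT and 0.122 ± 0.0340 in psah2k (SD, n = 4 each), a level 3.24 times as high in WT. WT arrays 1 and 2 were brighter than WT 3 and 4 for this gene. The percentile rank of CHLM moved the other way, from 57.6 ± 6.27 in WT to 66.5 ± 5.29 in psah2k, with overlap: WT 2 stood at 65.8, above psah2k 1 and psah2k 3 at 64.8 and 60.0. That gain of 8.88 points was 2.935 points when only features above 0 on all 8 arrays were ranked (exact permutation adjusted p = 0.631).

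The log2 fold change of CHLM after quantile normalization was 0.17 (SE 0.205, limma adjusted p = 0.516). As deposited it fell by 1.72 on the log2 scale (adjusted p = 0.000548), against −1.77 for the median tested feature. Centring on the median gave 0.22 and centring on the upper quartile −0.49, neither past the threshold. CHLM was within 0.06 of the median tested feature on the deposited, median centred and upper quartile centred scales, which differ from each other only by a constant per array. A change of CHLM apart from the shift of the whole array was not detectable with 4 arrays per genotype.

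AT1G74470 encodes geranylgeranyl reductase and was among the brightest features of every array. Its deposited intensity was 2.99, 2.96, 2.79 and 2.56 in WT samples 1 to 4, and 5.59, 5.70, 4.17 and 3.98 in psah2k samples 1 to 4. All psah2k arrays were above all WT arrays. Within psah2k, numbers 1 and 2 were brighter than 3 and 4. The means were 2.83 ± 0.199 in WT and 4.86 ± 0.913 in psah2k (SD, n = 4 each), a ratio of 1.72. That ratio was 1.90 with numbers 1 and 2 and 1.52 with numbers 3 and 4. For comparison, the groups did not overlap and psah2k was the higher one for 5.42% of the features above 0 on at least 1 array.

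The percentile rank of AT1G74470 had little room to move. It was 96.4 ± 0.101 in WT and 97.7 ± 0.180 in psah2k, a gain of 1.20 points with no overlap. Ranks did not overlap for 52.4% of the features above 0 on at least 1 array. After quantile normalization AT1G74470 rose by 0.48 on the log2 scale (SE 0.105, limma adjusted p = 0.00635), 33.0% of tested features having a larger log2 fold change. It rose under all 5 scalings run, by 0.76 as deposited, 0.44 by cyclic loess, 2.70 with median centring and 1.99 with upper quartile centring. The call was lost with averaged numbers (adjusted p = 0.144) and with each of these pairs alone (adjusted p = 0.0503 and 0.0638). The top of the intensity distribution also differed between genotypes. Its 99th percentile was 8.89 to 11.1 on the WT arrays and 12.3 to 15.9 on the psah2k arrays, whereas an intensity of 1 exceeded 85.6% to 87.4% of features on the WT arrays and 91.7% to 92.9% on the psah2k arrays. The part of this difference in the result for AT1G74470 was not tested.

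**Figure D2:**
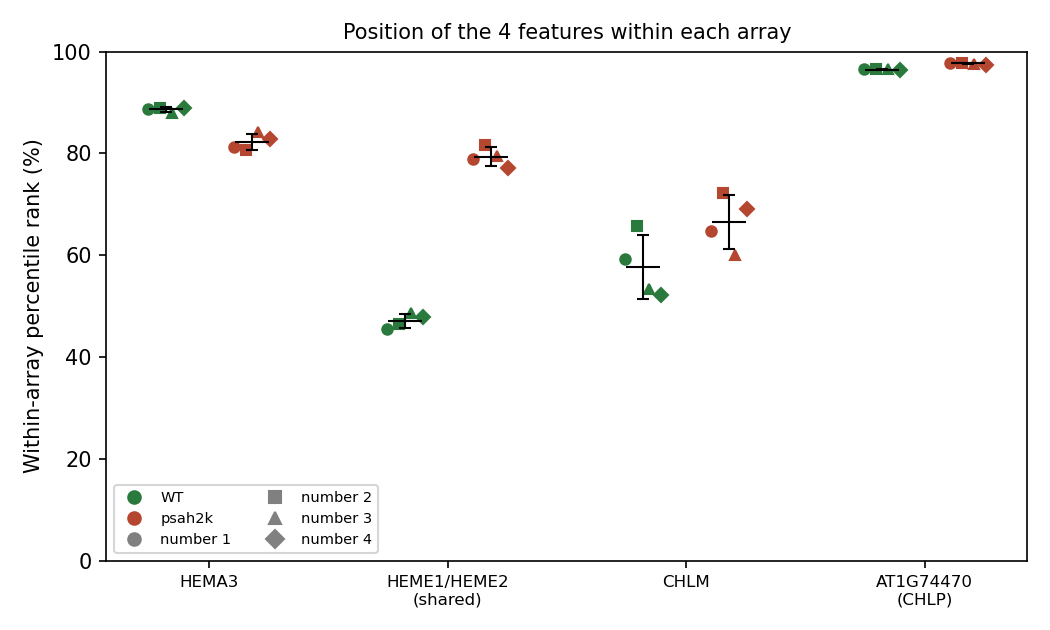
Percentile rank of the 4 features among all 3439 features of each array (0 to 100%), in the order of the pathway; symbols as for the intensities, with mean and SD over 4 arrays. The HEME1/HEME2 feature moved from 45.4 to 48.7 on the WT arrays to 77.1 to 81.7 on the psah2k arrays, the largest shift of the 4.

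Ranks and intensities of the same gene thus gave different pictures along the pathway. An intensity near 0.3 corresponded to a rank of 45.4 to 48.7 for the HEME1/HEME2 feature on the WT arrays but to 80.6 to 84.1 for HEMA3 on the psah2k arrays. The ranks of HEMA3, the HEME1/HEME2 feature and AT1G74470 did not overlap between genotypes, and neither did those of 52.4% of the features above 0 on at least 1 array. The exact permutation test of the rank, two-sided, gave p = 0.0286 for each of these 3, the smallest that 4 against 4 arrays allow, and p = 0.114 for CHLM. Adjusted over all 3305 features the smallest value was 0.0546, so 0 features passed by this test, although 1731 had an unadjusted p under 0.05 and limma called 1246 of its 2353.

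**Figure D3:**
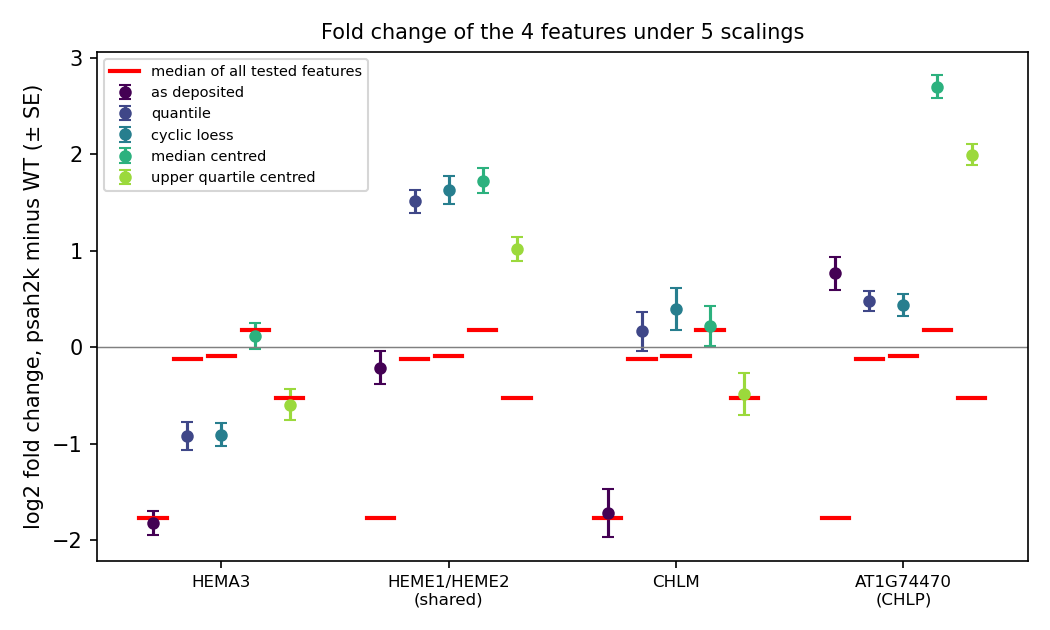
Log2 fold change (psah2k minus WT, points with SE from limma) of the 4 features under 5 ways of scaling the arrays, with the median of all tested features under the same scaling as a red line. HEMA3 and CHLM lay near the red line on the deposited, median centred and upper quartile centred scales, while the HEME1/HEME2 feature and AT1G74470 lay above it on all 5.

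Ratios between genes within an array do not change when the whole array is multiplied by a constant. Where arrays differ only by such a constant, the ratios show whether 2 genes changed unequally, not which of them changed. Here the psah2k arrays had lower medians but higher 99th percentiles, and the part of this difference in the ratios was not tested. The log2 ratio of AT1G74470 over HEMA3 was 1.40, 1.32, 1.43 and 1.23 in WT samples 1 to 4 and 4.19, 4.23, 3.63 and 3.67 in psah2k samples 1 to 4. As deposited, AT1G74470 thus gained 2.59 log2 units on HEMA3, which is only a paralog among the HEMA genes of the entry step. AT1G74470 gained on CHLM by 2.48 log2 units, from 2.86 ± 0.224 to 5.34 ± 0.395 (SD, n = 4 each). The ratio of CHLM over HEMA3 was −1.52 ± 0.233 in WT and −1.41 ± 0.469 in psah2k, overlapping, with an exact permutation p = 0.714.

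The HEME1/HEME2 feature gained 1.61 log2 units on HEMA3. The ratio of CHLM over the HEME1/HEME2 feature fell by 1.505 log2 units, from 0.390 ± 0.270 to −1.11 ± 0.369 (SD, n = 4 each). AT1G74470 gained 0.98 log2 units on the HEME1/HEME2 feature as deposited. Among the 6 pairs of features, 5 did not overlap between genotypes, each with an exact permutation p = 0.0286 and 0.0343 after adjustment over the 6 pairs. Over all pairs of features above 0 on all 8 arrays, 57.9% did not overlap, so nothing particular to these genes can be read from that count. With quantile-normalized values AT1G74470 gained 1.40 log2 units on HEMA3, less than as deposited, and the HEME1/HEME2 feature gained 2.43 log2 units on HEMA3, more than as deposited. The ratio of AT1G74470 over the HEME1/HEME2 feature turned direction with those values (−1.03, adjusted exact p = 0.0343), that over CHLM shrank to 0.31 (adjusted exact p = 0.229), and that of CHLM over HEMA3 passed at 1.09 (adjusted exact p = 0.0343). The order in which these genes changed therefore depended on whether the scaling was constant over an array or varied with intensity.

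**Figure D4:**
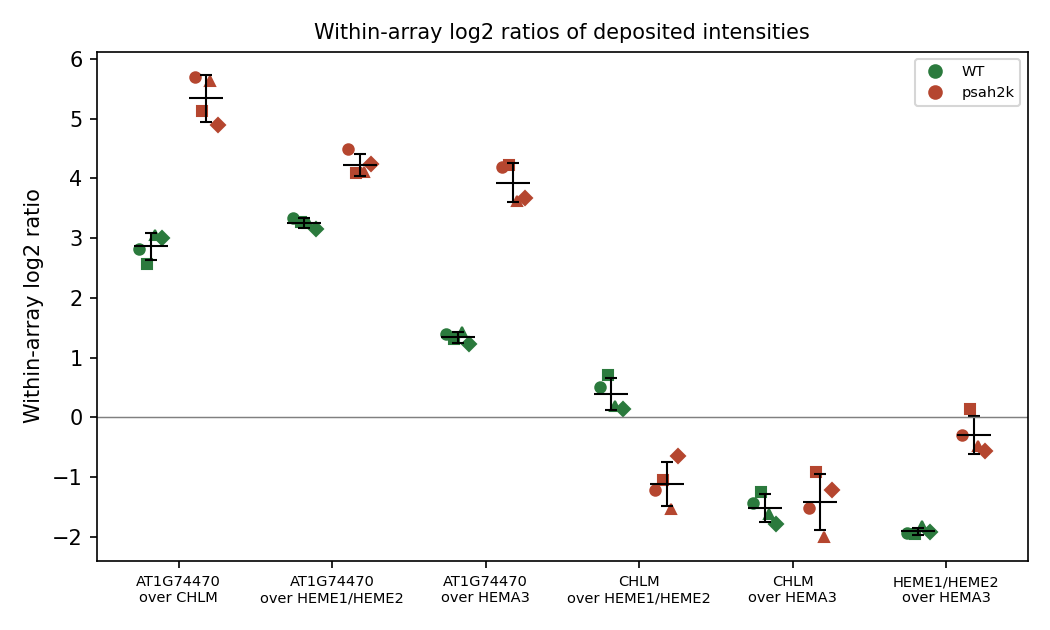
Within-array log2 ratio of deposited intensities for the 6 pairs of features on each array, WT in green and psah2k in red, with mean and SD over 4 arrays. The genotypes overlapped for CHLM over HEMA3 and were separate for the other 5 pairs.

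The rest of the pathway was sparsely covered. Of 43 listed genes of tetrapyrrole synthesis, its branches and its regulators, 10 had a feature, on 8 features in all, and the features not yet described number 4. None of the 9 genes of chlorophyll breakdown and none of the 14 genes that supply geranylgeranyl diphosphate or make tocopherol had one. Of the 8 features, limma called 3 as higher and 2 as lower after quantile normalization, against 26.3% and 26.6% of all tested features, and 3 did not pass. The median log2 fold change of the 8 was 0.28, against −0.12 over all tested features. The split depended on the scaling, as did that of all 2353 tested features. As deposited, 1 was higher and 5 lower (median −1.77, against −1.77 over all), with 172 higher and 1718 lower over all. Median centring gave 3 higher and 1 lower (median 0.17, against 0.18 over all), with 817 and 396 over all. Upper quartile centring gave 3 and 3 (−0.54 against −0.53), with 567 and 790 over all. Cyclic loess gave 3 and 2 (0.40 against −0.09), with 569 and 488 over all. With averaged numbers, 1 of the 8 passed, against 29.3% of all tested features.

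On the trunk, the feature shared by HEMB1 and HEMB2, the 5-aminolevulinate dehydratase genes, had deposited intensities of 0.434, 0.484, 0.266 and 0.379 in WT samples 1 to 4 and of 0.0376, 0.0568, 0.0292 and 0.0174 in psah2k samples 1 to 4. As for 67.4% of the features above 0 on at least 1 array, all psah2k arrays were below all WT arrays, here by far. The means were 0.391 ± 0.0937 and 0.0353 ± 0.0166 (SD, n = 4 each), 11.1 times as high in WT. It fell by 1.37 on the log2 scale after quantile normalization (SE 0.323, limma adjusted p = 0.00891) and passed as lower under all 5 scalings. It missed the threshold with a pseudocount (adjusted p = 0.0571) and with each 0 raised to the lowest positive value of its array (adjusted p = 0.118). It also missed it with averaged numbers (adjusted p = 0.0668) and with numbers 3 and 4 alone (adjusted p = 0.0722), at log2 fold changes of −1.37 and −1.47. Its mean percentile rank was 57.0 in WT and 41.1 in psah2k, and the ranks overlapped.

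SIRB encodes sirohydrochlorin ferrochelatase, which inserts iron in the side branch to siroheme. Its deposited intensity was 0.175 to 0.197 on the WT arrays and 0.0714, 0.0498, 0.0291 and 0 in psah2k samples 1 to 4. Every psah2k array was lower on that scale, as was so for 67.4% of the features above 0 on at least 1 array. Its log2 fold change was 0.39 after quantile normalization (limma adjusted p = 0.2, with the value of 0 left out), but −1.99 as deposited (adjusted p = 0.00105) and −0.82 after upper quartile centring (adjusted p = 0.0292). Its percentile ranks ranged from 10.8 to 56.2 in psah2k, on both sides of the WT ranks.

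The genes LIL3:1 and LIL3:2 encode light-harvesting-like proteins that anchor geranylgeranyl reductase in the membrane. They shared 2 features, and these disagreed. Feature 613 had deposited intensities of 1.07, 1.09, 0.909 and 1.07 in WT samples 1 to 4 and of 1.23, 1.501, 1.03 and 1.02 in psah2k samples 1 to 4, which overlapped. Its rank was higher on every psah2k array (87.3 ± 1.13 against 93.2 ± 0.401, SD, n = 4 each). Ranks did not overlap, in either direction, for 52.4% of the features above 0 on at least 1 array. Feature 613 rose after quantile normalization (log2 0.71, SE 0.122, limma adjusted p = 0.00199), though not as deposited (0.20, adjusted p = 0.308). It was also called higher by cyclic loess (0.54), upper quartile centring (1.42) and median centring (2.13). The call was lost with averaged numbers (adjusted p = 0.0691) and with numbers 3 and 4 alone (adjusted p = 0.0567).

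Feature 525 of LIL3:1 and LIL3:2 had deposited intensities of 0.325 to 0.419 on the WT arrays. In psah2k samples 1 to 4 it stood at 0.214, 0, 0.0137 and 0.0144. Its log2 fold change was −1.19 (SE 0.768, limma adjusted p = 0.232, with the value of 0 left out), and −3.39 as deposited (adjusted p = 0.0147). It lay below 0 under all 5 scalings, of which only the deposited values gave a call, and it was also called lower with numbers 3 and 4 alone (−2.41, adjusted p = 0.0127). The array does not say which of the LIL3 genes either feature measured.

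**Figure D5:**
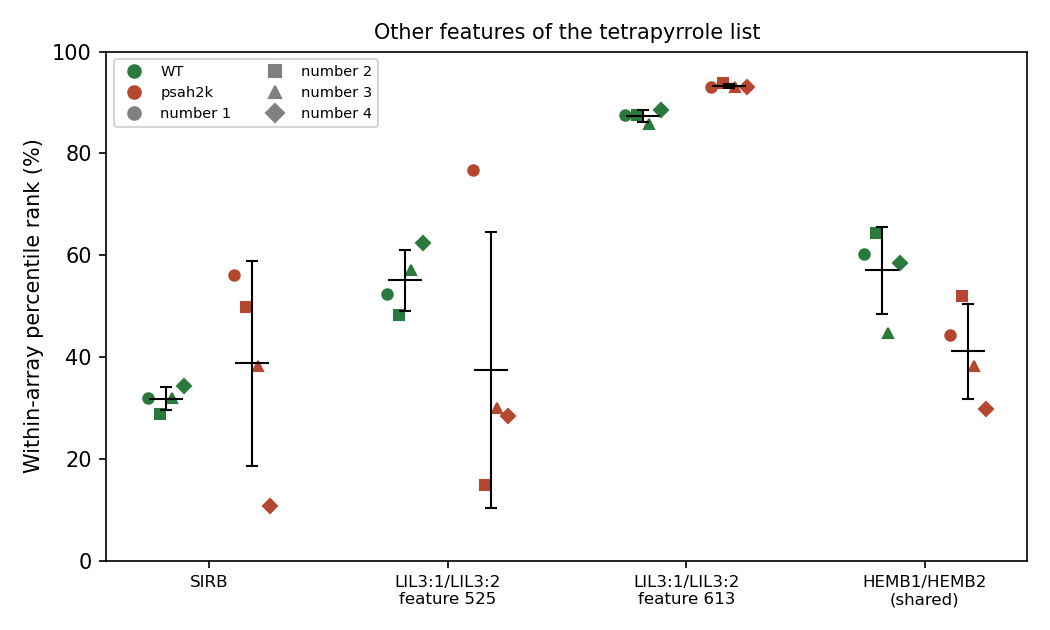
Percentile rank (0 to 100%) of the other 4 features of the tetrapyrrole list on each array, WT in green and psah2k in red, with mean and SD over 4 arrays. Feature 613 of LIL3:1/LIL3:2 was higher on every psah2k array, while SIRB and feature 525 of LIL3:1/LIL3:2 were widely spread on the psah2k arrays, where each was listed at 0 on 1 array.

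For each feature, the genes with the nearest profiles over the 8 arrays were looked up. Some genes are always nearest, and whether these were closer than by chance was not tested. The differences were largest for the genes nearest to CHLM. Likeness was measured as the root mean square difference between quantile-normalized log2 profiles, each centred on its own mean, over the 338 features with 1 gene and values above 0 on all 8 arrays. Nearest to HEMA3 were AT1G76450 (difference 0.133), AT3G16310 (0.137) and AT1G13370 (0.142), with log2 fold changes of −0.73, −0.82 and −0.98. Nearest to the HEME1/HEME2 feature were AT4G13550 (0.118), AT3G47650 (0.154) and AT2G35490 (0.157), with log2 fold changes of 1.42, 1.74 and 1.41. All 6 passed the limma test, as did 53.0% of all tested features; since they were selected for profiles like those of 2 called features, their calls and directions follow from the selection.

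Their deposited intensities were less alike than their normalized profiles. AT4G13550 went from 0.703 ± 0.0230 in WT to 1.07 ± 0.0795 in psah2k, and AT2G35490 from 0.231 ± 0.0251 to 0.155 ± 0.0383 (SD, n = 4 each), although their normalized changes were nearly equal. AT1G76450 went from 6.86 ± 0.235 to 5.25 ± 0.315, while AT3G16310 went from 1.02 ± 0.120 to 0.291 ± 0.0463, close to the values of HEMA3.

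Nearest to CHLM were AT3G20490 (difference 0.188), AT4G29890 (0.209) and AT1G02260 (0.215), with log2 fold changes of 0.20, 0.05 and 0.42, none past the threshold. Nearest to AT1G74470 was AT3G06570 (0.0735), with a log2 fold change of 0.35 (limma adjusted p = 0.0205) and deposited intensities of 3.64 ± 0.137 in WT and 5.61 ± 0.931 in psah2k (SD, n = 4 each). AT1G13990 (0.117) and AT4G16410 (0.153) came next, with log2 fold changes of 0.31 (adjusted p = 0.0505) and 0.39 (adjusted p = 0.0444). The profile of AT3G06570 was the closest to any of the 4 features. The genes nearest to CHLM and AT1G74470 were likewise selected for their profiles, so their fold changes and calls are no separate evidence.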

How the data were processed

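The deposited table holds 1 intensity per feature and array, linear from 0 to 100; the sources used here do not give how the authors corrected background or scaled the arrays. Names came from the platform's GEO annotation (692 with 1 gene, 870 with several, 1877 unnamed) and symbols through the TAIR10.1 RefSeq table; no coordinates were used. Groups came from the sample titles. Members, lists and tests were chosen with earlier results of these data known.

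Values of 0 were missing, intensities were log2 transformed and quantile normalized, and features with 3 or more values per genotype went into limma 3.58.1 in R 4.3.3 (lmFit, eBayes, two-sided, Benjamini-Hochberg, threshold 0.05). The limma fit was tested on values simulated on the normalized scale, which did not cover the normalization or the values of 0. Percentile ranks used all features, and ranks and within-array ratios were compared by exact permutation over 70 splits. Named genes were the members, all listed pathway features, and the 3 nearest profiles of each member. Alternatives covered scaling, values of 0, a pseudocount of 0.0309, filters, the variance model, array weights, numbers as a block or averaged, and each array left out. The number of arrays limits the precision. Figures were drawn with matplotlib 3.10.9.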

Additional observations from a re-analysis of the deposited data

Results flagged for a closer look

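For the 8 pathway features, 4 single values stood apart from those on the other 3 arrays of their genotype. The 4 flags came from 46 groups of 4 values checked, and chance flags about 1 in 20 such groups. The groups hold the intensity, rank and normalized log2 value of the same features, so they are not independent. All 4 belong to the features shared by LIL3:1 and LIL3:2. On feature 525, psah2k 1 had a deposited intensity of 0.214 against a median of 0.0137 on the other psah2k arrays. On feature 613, WT 3 had a deposited intensity of 0.909 against a median of 1.07, psah2k 2 a percentile rank of 93.8 against 93.0, and psah2k 1 a normalized log2 value of 0.30 against 0.44. None of the values of HEMA3, HEME1/HEME2, CHLM or AT1G74470 stood apart in this way.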

How the results depend on the processing

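Limma called 1246 of 2353 tested features, and 1890 of 2353 as deposited. It called 236 of 468 features with 1 gene and 820 of 2329 with numbers 3 and 4 alone. With numbers 1-2 and 3-4 averaged first it called 689 of 2353. With 1 array left out it called 1025 to 1082, of 1871 to 2351 tested. Of the 8 pathway features 5 were called. The call was made for 2 of the 4 tested with 1 gene and 3 of the 7 tested with numbers 3 and 4 alone. It was made for 1 of 8 with numbers averaged. With any single array left out 5 were called, of 6 to 8 tested. HEMA3 was 0.11 (log2) after median centring and −0.92 but not called with numbers averaged. HEME1/HEME2 (−0.21) and CHLM (−1.72) turned as deposited. SIRB was −1.99 as deposited and −0.82 after upper quartile centring. AT1G74470 missed the threshold with numbers averaged (0.48), with 1 and 2 alone (0.44) and with 3 and 4 alone (0.52). Leaving out 1 array gave −0.99 to −0.80 for HEMA3, 1.41 to 1.59 for HEME1/HEME2, 0.08 to 0.31 for CHLM and 0.45 to 0.49 for AT1G74470.

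Each sample correlated best with the same-numbered sample of the other genotype. Deviations from the genotype means correlated at 0.0561 to 0.126 for the same number and at −0.0991 to 0.0371 for different numbers. The main tests did not pair the samples, and what the shared number stands for was not tested. With the replicate number as a block limma called 1087 features and the calls of the 4 members did not change. The paired exact test of the ratios cannot go below 0.125, so its adjusted p of 0.150 for AT1G74470 over CHLM (2.48), over HEME1/HEME2 (0.98) and over HEMA3 (2.59), CHLM over HEME1/HEME2 (−1.505) and HEME1/HEME2 over HEMA3 (1.61) says nothing about stability. With quantile-normalized values AT1G74470 over HEME1/HEME2 was −1.03, over CHLM 0.31, and CHLM over HEMA3 1.09. The HEME1/HEME2 feature could not be ranked among features with 1 gene. Ranked only among features above 0 on all 8 arrays, HEMA3 moved by −12.69 points (−6.419 among all features) and CHLM by 2.935 (8.883). The HEME1/HEME2 feature moved by 36.0 (32.2) and AT1G74470 by 2.132 (1.199). The causes were not tested.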
